A study of Homo sapiens with 6 samples.

Results

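The genes described here are 46 human genes that repair DNA double-strand breaks and crosslinks, out of 60448 genes in the deposited tables. They were chosen by name: 12 sense breaks or signal from them, 15 act in homologous recombination, 11 belong to the Fanconi anaemia pathway and 8 act in end joining. All 46 names were found in the tables, with MRE11 under its older symbol MRE11A and the histone variant gene H2AX as H2AFX.

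A break in both strands of DNA is bound by the MRE11-RAD50-NBN complex or by Ku, and the kinases ATM and ATR pass the signal to checkpoint kinases and to chromatin. End joining ligates the ends with little or no template and can act through the cell cycle. Homologous recombination first cuts back the ends and then copies the sister chromatid, so it acts in S and G2 phase, when many of its genes are also most expressed. The Fanconi proteins recognise crosslinks that join the strands, mark the site with ubiquitin and hand the resulting break to recombination.

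RPE1 cells, an immortalised human line from the retinal pigment epithelium, were profiled by 4sU-seq: cells take up a uridine analogue, and the RNA that carries it, made during the labelling, is sequenced. Of the 3 groups, the first was wild type without treatment and the second was wild type treated with hydrogen peroxide (H2O2), an oxidant that damages DNA. In the third group, NuMA (TDIF) knockdown cells were treated with H2O2, and only these cells had doxycycline to induce the knockdown. Drug and knockdown therefore form 1 factor and cannot be told apart, and an untreated knockdown was not analysed here. Each group had 2 libraries, but the deposited tables give 1 pooled value per gene and group, so no spread between libraries and no overlap of groups can be shown. The labels give no dose or times and do not say that the libraries were separate cultures, so the spread behind the p-values is one of libraries and may be technical.

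All quantities below are of newly made RNA. A mean count is the mean number of reads per library of a group, recovered from the deposited values and not scaled for depth, whose totals were 14786612 in untreated wild type, 18341732 in treated wild type and 16827872 in the knockdown. The deposited signal is that count plus 1, per gene length, and serves to compare levels between genes. A log2 change compares 2 groups relative to the median gene, with the standard error (SE) that the deposited p-value implies; the median gene itself stood at 0.29 in the H2O2 comparison and at -0.29 in the knockdown comparison in the deposited tables. A gene rose or fell, in the words used here, only where the adjusted p was under 0.05 both in the authors' deposited table and after that centring, in the same direction.

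The gene of the knockdown, NUMA1, which encodes a nuclear protein of the spindle poles, had 1168, 1571 and 933.5 mean counts in the 3 groups in the order above. It was lowest in the knockdown, at -0.46 ± 0.12 (SE) against treated wild type (adjusted p = 0.00114). The lower quartile of all genes tested was -0.42, and 14.4% of them fell, so many genes were as low. NUMA1 was added to the lists after the values of the repair genes had been seen. Markers of cell types, as mean counts not scaled for depth, were mixed. Of 10 markers of differentiated retinal pigment epithelium 3 reached 50 mean counts in a group (MITF, OTX2 and BEST1), TYRP1 and DCT were at 0 in all groups, and the list summed to 1081.5, 923.5 and 805.5. With H2O2, BEST1 rose, from 4.5 to 63 mean counts, and OTX2 fell, from 387 to 166.5. Of 6 epithelial markers 4 reached 50, and the list summed to 19577, 43587 and 29165, mostly KRT8 and KRT18. Of 11 fibroblast markers 5 did, with sums of 5507.5, 10970 and 8926.5. With H2O2, 2 of the 10 fibroblast markers tested rose and 1 fell, COL5A1, at a log2 change of -1.70 before centring. PDGFRB rose with H2O2 and fell in the knockdown, with 407.5, 3987 and 2405. Of 8 neuron markers 3 reached 50, with sums of 551.5, 678 and 394.5. TUBB3 rose with H2O2 and fell in the knockdown, with 41.5, 232 and 120.5. SYP also rose with H2O2, while MAP2 went the other way, at -0.75. MAP2 was lower by the centred test alone and did not pass both tests. It was the only 1 of the 5 neuron markers tested with H2O2 that stood below 0. STMN2 was at 0 in all groups. None of 6 blood markers reached 50, and they summed to 22.5, 47 and 48.5. The part of these markers in the values of the repair genes was not tested.

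H2AFX, the histone variant that is phosphorylated around breaks, had the highest signal per length in every group, 313 in untreated wild type, 259 in treated wild type and 238 in the knockdown. Both Ku subunits came next, XRCC6 with 214 and XRCC5 with 175 in untreated wild type. The median of the 46 genes was 8.99, 9.59 and 4.19 in the 3 groups. BRCA2, which loads the recombinase onto single-stranded DNA, was near the bottom of the order with 1.68, 1.47 and 0.345. At the bottom in untreated wild type stood NHEJ1, a scaffold of the ligation step, with 0.5, 2 and 6 mean counts, too few for a fold change to be read. A gene on the same strand, RP11-33O4.2, overlaps NHEJ1 over 85537 bases and had 5.5, 1.5 and 0.5 mean counts. How reads in both genes were assigned is not given, so the counts of NHEJ1 may not show its level. Together the 46 genes took 0.209%, 0.169% and 0.126% of all mean counts. The values are pooled, so it cannot be said which neighbours in this order differ beyond the spread of libraries.

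**Figure D1:**
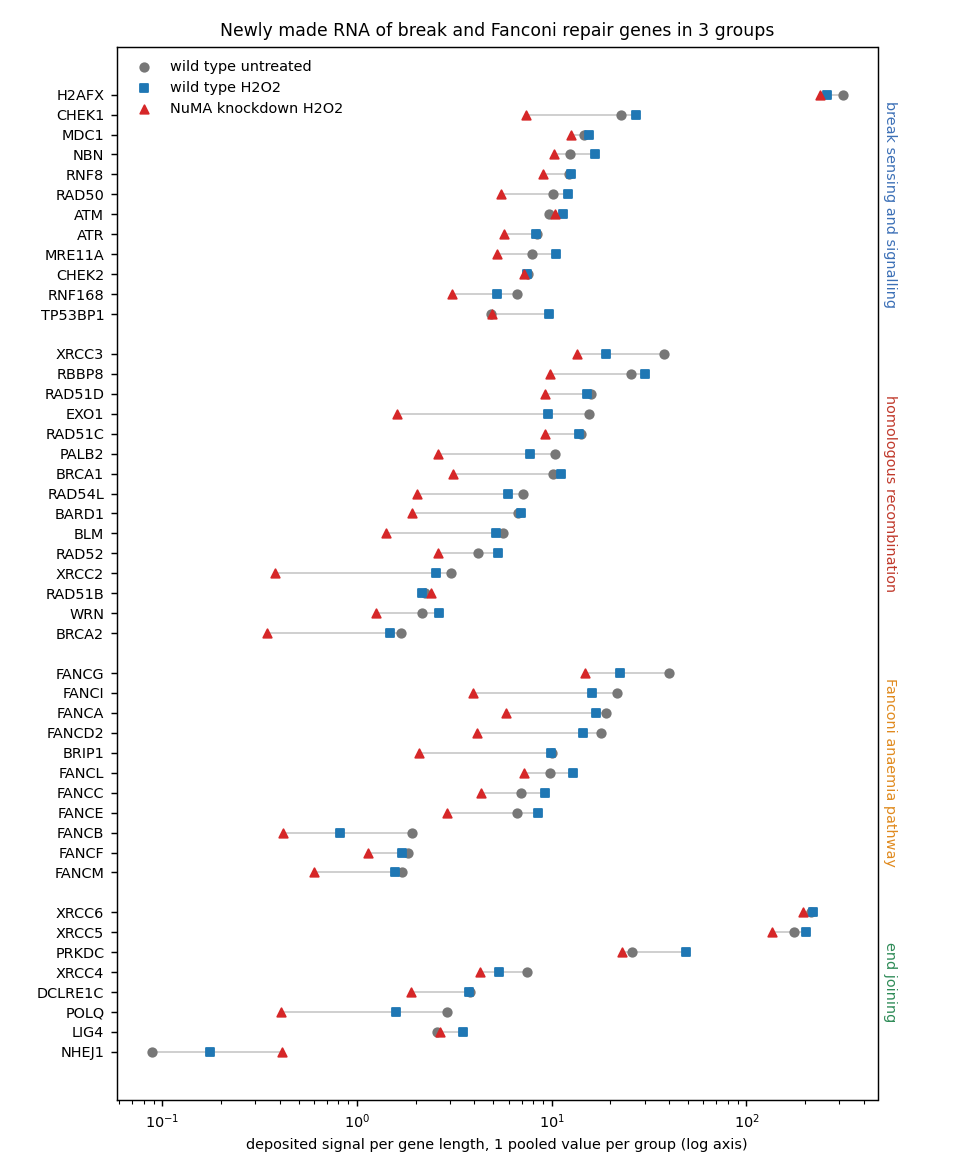
Deposited signal per gene length of each of the 46 repair genes (log axis), with 1 pooled value for untreated wild type (circles), treated wild type (squares) and treated NuMA knockdown (triangles). The triangles of XRCC2 at 0.377 and EXO1 at 1.59 lie far left of their other points, while ATM and CHEK2 hold all 3 points close together on this scale, which is not adjusted for depth.

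In the knockdown, newly made RNA of 25 of the 46 genes fell and that of none rose, both groups having had H2O2. Over all 18266 genes tested, 14.4% fell and 6.81% rose, and among genes with at least 50 mean counts 21.5% fell. By a log2 change of -1 or below, 16 of the 46 fell, against 3.88% of all genes tested. The median of the 46 was -0.70, against 0.02 for all genes tested, and 40 of the 46 were below 0. In the authors' deposited table, before centring, 35 of the 46 were lower, against 28% of all genes. By the centred test alone the same number as by both tests was lower, 25, and none was higher. The equal count follows from the shift of -0.29, since a gene below 0 after centring is lower still before it. Over all genes tested, too, both rules called 2637 lower, so the equal count is no separate support. Over all genes tested, the centred test alone called 14.4% lower and 15.5% higher, 29.9% in either direction.

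Homologous recombination genes held the lowest values, with 10 of 15 lower and a median log2 change of -1.29. XRCC2 (chr7:152644779-152676165, hg38) belongs to the family of paralogues that assist the recombinase. Its mean count was 192.5 in untreated wild type, 161 in treated wild type and 23 in the knockdown. Both wild type values were several times the knockdown value, and the log2 change was -2.46 ± 0.35 (SE), or 5.52-fold lower (adjusted p = 3.73e-11). EXO1 (chr1:241847967-241895148), the nuclease that extends the cutting back of ends, had 324, 199 and 32.5 mean counts. It stepped down from group to group, and the change in the knockdown was -2.29 ± 0.30, or 4.88-fold lower (adjusted p = 7.99e-13). BRCA2 (chr13:32315474-32400266) had 135.5, 118.5 and 27 mean counts. The knockdown was again the low group, 3.49-fold below treated wild type, at -1.80 ± 0.37 (adjusted p = 8.07e-06).

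The partners of BRCA2 fell with it. BRCA1, which with BARD1 forms a ubiquitin ligase that promotes recombination, had 349.5, 387 and 106.5 mean counts and changed by -1.56 ± 0.21 (adjusted p = 4.74e-12). BARD1 had 245, 253.5 and 69, a change of -1.57 ± 0.25. PALB2, which joins BRCA1 to BRCA2, had 296.5, 221.5 and 73.5, a change of -1.29 ± 0.25. In all of these genes the knockdown was the low group. RBBP8, which starts the cutting back of ends, had 577.5, 680.5 and 220.5 mean counts and fell by 1.33 on the log2 scale. BLM, a helicase that takes apart recombination intermediates, had 193.5, 177.5 and 47.5 and changed by -1.59 ± 0.29. RAD54L, a motor protein that helps the strand exchange, had 125, 104 and 35 and changed by -1.25 ± 0.39 (adjusted p = 0.00581). WRN, a second helicase of the same family as BLM, had 109, 134 and 63 and changed by -0.79 ± 0.30 (adjusted p = 0.0347). Once the trend of the change with gene span was removed, WRN stood at -0.67 and no longer passed (adjusted p = 0.0870).

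The other paralogues of the recombinase did not pass the test in the knockdown, unlike XRCC2. RAD51D stood at -0.44 ± 0.19 (adjusted p = 0.061), RAD51C at -0.30 ± 0.22 and XRCC3 at -0.21 ± 0.20. RAD51B stood at 0.45 ± 0.49, on 29.5 mean counts in treated wild type and 33 in the knockdown. Missing the threshold does not show that these genes were unchanged, and the difference of each from XRCC2 was not tested. RAD52, an annealing protein, stood at -0.73 ± 0.31 (adjusted p = 0.0569).

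In the Fanconi anaemia pathway 6 of 11 genes fell, with a median log2 change of -1.08. BRIP1 (chr17:61681266-61863521), a helicase that binds BRCA1, had 339.5 and 333 mean counts in untreated and treated wild type and 69 in the knockdown. The knockdown was the low group, 3.9-fold below treated wild type, at -1.96 ± 0.23 (adjusted p = 1.36e-15). FANCI (chr15:89243949-89317261) and FANCD2 form the clamp that is marked with ubiquitin at a crosslink. FANCI had 591.5, 438 and 106.5 mean counts and was 3.34-fold lower in the knockdown, at -1.74 ± 0.19 (adjusted p = 1.54e-17). FANCD2 had 567.5, 456 and 129.5 and changed by -1.52 ± 0.19 (adjusted p = 1.09e-14). For both, treated wild type lay between the other groups.

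Of the core complex that attaches the ubiquitin, FANCE, FANCA and FANCC fell. FANCE had 276.5, 354.5 and 119 mean counts and changed by -1.28 ± 0.20. FANCA had 336.5, 297.5 and 102 and changed by -1.24 ± 0.22. FANCC had 198.5, 263 and 122.5 and changed by -0.80 ± 0.22 (adjusted p = 0.00136). The rest of the complex did not pass: FANCL, its ubiquitin ligase, stood at -0.54 ± 0.23 (adjusted p = 0.0601), FANCG at -0.30 ± 0.18, FANCF at -0.28 ± 0.29 and FANCB at -0.69 ± 0.63. FANCB had 29.5 mean counts in treated wild type and 14.5 in the knockdown, and a change of this size was not detectable at that depth. FANCM, which anchors the complex on DNA, stood at -1.08 ± 0.45 (adjusted p = 0.0522) on 69 and 26 mean counts.

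Among the genes of break sensing and signalling 6 of 12 fell, but only CHEK1 by more than 1 on the log2 scale, and the median was -0.33. CHEK1, the checkpoint kinase that ATR activates, had 570.5, 686 and 184.5 mean counts. The knockdown was the low group, 3.03-fold below treated wild type, at -1.60 ± 0.17 (adjusted p = 2.44e-18). The kinases upstream did not pass: ATR stood at -0.25 ± 0.21, and ATM, with 366.5, 436.5 and 397 mean counts, at 0.15 ± 0.16. CHEK2, the checkpoint kinase that ATM activates, had 148, 146.5 and 142.5 mean counts and stood at 0.25 ± 0.26.

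The complex that binds the broken ends fell in all its subunits, by smaller amounts. RAD50 changed by -0.86 ± 0.18 (adjusted p = 1.14e-05), MRE11A by -0.71 ± 0.20 (adjusted p = 0.00151) and NBN by -0.41 ± 0.16 (adjusted p = 0.0392). With the trend with gene span removed NBN stood at -0.32 and no longer passed (adjusted p = 0.136). TP53BP1, which shields ends from being cut back, changed by -0.68 ± 0.17 (adjusted p = 0.000432) and RNF168, a ubiquitin ligase that prepares chromatin for it, by -0.47 ± 0.19 (adjusted p = 0.0425). RNF8, the ligase that acts ahead of RNF168, stood at -0.19 ± 0.18. MDC1, the scaffold on phosphorylated histone, stood at -0.02 ± 0.18 and H2AFX at 0.17 ± 0.09, and none of these 3 passed.

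In end joining 3 of 8 genes fell and the median log2 change was -0.20. POLQ (chr3:121431427-121546641), the polymerase of the alternative pathway that anneals short matches, had 226, 123 and 31 mean counts. It stepped down in both comparisons and was 3.17-fold lower in the knockdown than in treated wild type, at -1.66 ± 0.36 (adjusted p = 2.71e-05). PRKDC, the kinase that Ku recruits, changed by -0.80 ± 0.10 (adjusted p = 4.33e-13). XRCC5 had 4033.5, 4665 and 3111.5 mean counts, a change of -0.29 ± 0.08 (adjusted p = 0.00229). Without the trend with gene span XRCC5 stood at -0.08 and no longer passed (adjusted p = 0.538). The ligase LIG4 stood at -0.10 ± 0.21, its partner XRCC4 at -0.04 ± 0.27, XRCC6 at 0.12 ± 0.09 and the nuclease DCLRE1C at -0.70 ± 0.32 (adjusted p = 0.0845), and none of them passed.

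**Figure D2:**
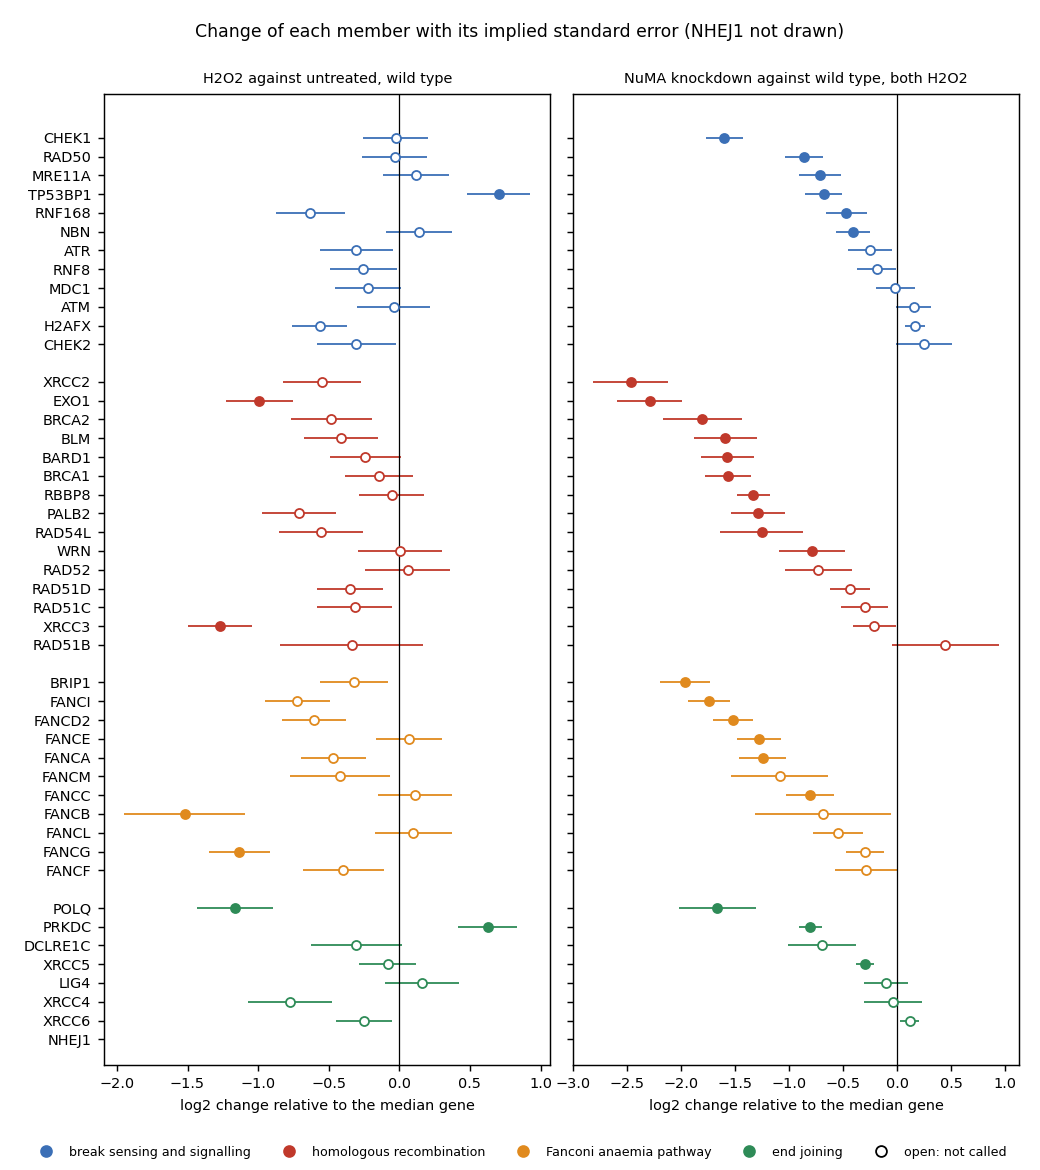
Log2 change relative to the median gene for each repair gene except NHEJ1, which is not drawn. H2O2 against untreated in wild type is on the left and knockdown against wild type with H2O2 in both on the right. Bars are 1 SE, filled points passed both tests and open points did not. On the right 25 points are filled, all below 0; on the left 7 are, 2 of them above 0.

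Set side by side, homologous recombination and Fanconi genes had 16 of 26 lower in the knockdown, 14 of them by 1 or more on the log2 scale, with a median of -1.25. End joining had 3 of 8 lower, 1 of them by 1 or more, and its median rests in part on NHEJ1 with its 6 mean counts. Without NHEJ1, the end joining genes ranged from -1.66 for POLQ to 0.12 for XRCC6, with PRKDC next lowest at -0.80. The difference between the 2 classes was not tested.

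Genes of the cell cycle moved in the same direction. Of 23 genes of S phase and replication, 19 fell in the knockdown with a median of -0.96, such as MCM6 at -1.73 ± 0.13 and CDC6 at -1.27 ± 0.13. Of 26 genes of G2 and mitosis, 22 fell with a median of -0.92, such as MKI67 at -1.55 ± 0.12. The part of the cell cycle in the values of the repair genes was not tested. In a bulk sample, fewer cells in a phase and less RNA made per cell cannot be told apart.

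**Figure D3:**
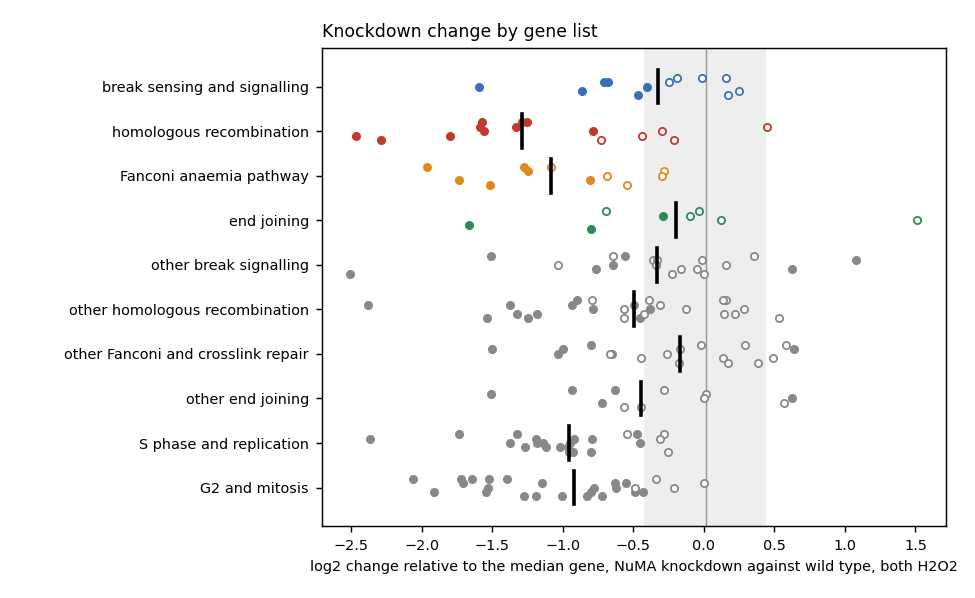
Log2 change of every gene in the knockdown against treated wild type, by list, with filled points for genes that passed both tests, open points for those that did not and a black bar at each list's median; the grey band holds the middle 50% of all tested genes, from -0.42 to 0.44. The bars of homologous recombination (-1.29) and Fanconi genes (-1.08) lie left of the band, as do those of S phase (-0.96) and mitosis (-0.92). Those of other recombination (-0.49) and other end joining genes (-0.44) lie just left of the band. The bars of break signalling (-0.33), end joining (-0.20), other break signalling (-0.33) and other Fanconi and crosslink genes (-0.17) lie inside it.

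The wider pathway was read from 73 further tested genes. In the knockdown 26 of them fell and 4 rose, with a median of -0.39, and 11 fell by 1 or more on the log2 scale. By class the medians were -0.49 in recombination, -0.44 in end joining, -0.33 in signalling and -0.17 in Fanconi and crosslink repair. FAAP20 and BRE, which rose by less than 1, are named after their values were seen. Of the other recombination genes 12 of 25 fell, and the lowest was MCM8, a helicase that acts at recombination sites, with 510, 372.5 and 57.5 mean counts and a change of -2.38 ± 0.24 (adjusted p = 3.59e-22). GEN1, which cuts recombination junctions, changed by -1.54, DNA2, a nuclease that cuts back ends, by -1.37, FIGNL1 by -1.33, RMI1, a partner of BLM, by -1.24 and MND1 by -1.18. Of the other Fanconi and crosslink genes 5 of 18 fell, among them USP1, which removes ubiquitin from the FANCD2-FANCI clamp, at -1.50 ± 0.14, and the nuclease DCLRE1B at -1.03 ± 0.22; FAAP20, a core complex subunit, rose to 0.64 ± 0.09. In end joining 4 of 11 fell, with PAXIP1 at -1.51 ± 0.34. In signalling 5 of 19 fell. CLSPN, the adaptor through which ATR reaches CHEK1, had 119.5, 176.5 and 24.5 mean counts and changed by -2.51 ± 0.33 (adjusted p = 6.89e-13), and TOPBP1, an activator of ATR, changed by -1.51 ± 0.18. BABAM1 and BRE, both subunits of the BRCA1-A complex, rose, to 1.08 ± 0.15 and 0.62 ± 0.14. The other subunits in the list did not pass and stood below 0, BRCC3 at -1.04 ± 0.45, UIMC1 at -0.34 ± 0.16 and FAM175A at -0.36 ± 0.36.

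H2O2 alone, in wild type, moved fewer of the repair genes. Of 45 tested, 2 rose (4.44%) and 5 fell (11.1%), against 16.6% and 9.6% of the 18522 genes tested; among genes with at least 50 mean counts 13.4% fell. The share that fell was thus near the background and the share that rose below it. By a log2 change of -1 or below 4 of the 45 fell, against 7.62% of all genes tested. The median was -0.31, against 0.05 for all genes tested. After centring alone 11 were lower and 2 higher, against 15.8% and 16.6% of all genes (32.3% in either direction); the 6 that passed there but not in the authors' deposited table were RNF168 at -0.63, H2AFX at -0.56, PALB2 at -0.71, FANCD2 at -0.61, FANCI at -0.72 and XRCC4 at -0.77.

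The genes that rose were TP53BP1 and PRKDC. TP53BP1 (chr15:43403061-43510728) had 225.5 mean counts without treatment, 450 with H2O2 and 229 in the knockdown. The treated wild type was the high group and the others were nearly equal, and the rise with H2O2 was 0.70 ± 0.22 (SE), or 1.63-fold (adjusted p = 0.00757). PRKDC (chr8:47773108-47960183) had 1239.5, 2341 and 1096 mean counts. Again only treated wild type was high, at 0.63 ± 0.21, or 1.54-fold (adjusted p = 0.0115). Both genes span over 100 kb, and long genes were higher after H2O2 in general, with a median of 0.21 over 2191 genes above that span. With the trend of span removed TP53BP1 stood at 0.50 (adjusted p = 0.0729) and PRKDC at 0.37 (adjusted p = 0.171), and neither passed.

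The genes that fell came from 3 of the 4 classes. XRCC3 (chr14:103697609-103715504), a paralogue of the recombinase, had 816.5, 414 and 292.5 mean counts. Untreated wild type was the high group, and the change with H2O2 was -1.27 ± 0.23, or 2.41-fold lower (adjusted p = 4.42e-07). FANCG (chr9:35073835-35080016), of the Fanconi core complex, had 679, 378 and 251 mean counts and a like order, at -1.13 ± 0.22 (adjusted p = 2.01e-06). These genes were lower after H2O2 and did not pass in the knockdown comparison. FANCB (chrX:14835961-14873069), of the same complex, had 70.5, 29.5 and 14.5 mean counts and changed by -1.52 ± 0.43 (adjusted p = 0.00212). EXO1 changed by -0.99 ± 0.24 (adjusted p = 0.000203) and POLQ by -1.16 ± 0.27 (adjusted p = 0.000109), and these are the repair genes that fell in both comparisons. The comparisons share the treated wild type group, so their values are not independent.

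By class, H2O2 gave no rise and 4 falls among the 26 recombination and Fanconi genes, with a median of -0.41, and 1 rise and 1 fall among the 7 tested end joining genes, with a median of -0.25. Signalling genes had 1 rise, no fall and a median of -0.13. Without centring the medians of signalling and end joining turn positive, to 0.16 and 0.0421, since the median gene itself stood at 0.29. Those medians are not scaled for depth, and the log2 ratio of total counts was 0.31. Mitosis genes fell more widely, 19 of 26 with a median of -1.23, while of the S phase genes 3 fell, MCM6 rose and the median was -0.21. Of the 73 further pathway genes 4 rose and 10 fell, with a median of -0.22. Those that rose, named after their values were seen, were RPA1 at 0.78, DYNLL1 at 0.73, FAAP100 at 0.64 and RAD17 at 0.59. Those that fell by 1 or more were HELQ at -1.90, ETAA1 at -1.68, POLL at -1.50, C9orf142 at -1.46, GEN1 at -1.44, EME1 at -1.25, MAD2L2 at -1.21 and POLM at -1.03. POLL and POLM are polymerases that fill gaps in end joining, C9orf142 encodes a stabiliser of the ligation complex, and HELQ is a helicase.

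Many repair genes start head to head with another gene, which lets a gene be read beside its neighbour. A gene on the opposite strand started within 1000 bases of 24 of the 46, and in 19 pairs both genes were tested. In the knockdown 3 of these neighbours fell (15.8%), 2 rose (10.5%) and 14 did not pass, near the 14.4% and 6.81% of all genes tested. ATM and NPAT, a coactivator of histone genes in S phase, start 158 bases apart. NPAT had 145, 96.5 and 27 mean counts and changed by -1.51 ± 0.38 (adjusted p = 0.000404), while ATM did not pass. The reverse was seen for BRCA1 at -1.56 beside NBR1 at 0.07 ± 0.11, and for PALB2 at -1.29 beside DCTN5, a dynactin subunit, at -0.18 ± 0.10. FANCD2 fell while the pseudogene CIDECP, 49 bases away, rose to 0.81 ± 0.15, and TP53BP1 fell while MAP1A rose to 0.75 ± 0.10. PRKDC and MCM4, a subunit of the replicative helicase, start 2 bases apart and both fell, MCM4 by 1.12 on the log2 scale.

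ZFYVE21 beside XRCC3 fell to -0.32 ± 0.13 (adjusted p = 0.0366). Those that did not pass in the knockdown were HSCB beside CHEK2 at 0.15, ANKRD49 beside MRE11A at -0.65, ERC1 beside RAD52 at 0.17, MOSPD2 beside FANCB at -0.56, FKBP3 beside FANCM at -0.14, TMEM167A beside XRCC4 at 0.12, DESI1 beside XRCC6 at 0.11 and ABHD13 beside LIG4 at -0.06. So did ZAR1L beside BRCA2, AC072062.1 beside BARD1, TEX14 beside RAD51C and GAS2 beside FANCF, each with at most 16 mean counts in any group. After H2O2 some pairs parted: ZFYVE21 rose to 0.71 ± 0.22 where XRCC3 fell, and MOSPD2 rose to 1.17 ± 0.30 where FANCB fell. ANKRD49 fell to -1.27 ± 0.28 beside MRE11A at 0.12 ± 0.23, and DCTN5 rose to 0.60 ± 0.21 beside PALB2 at -0.71. No difference within a pair was tested.

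**Figure D4:**
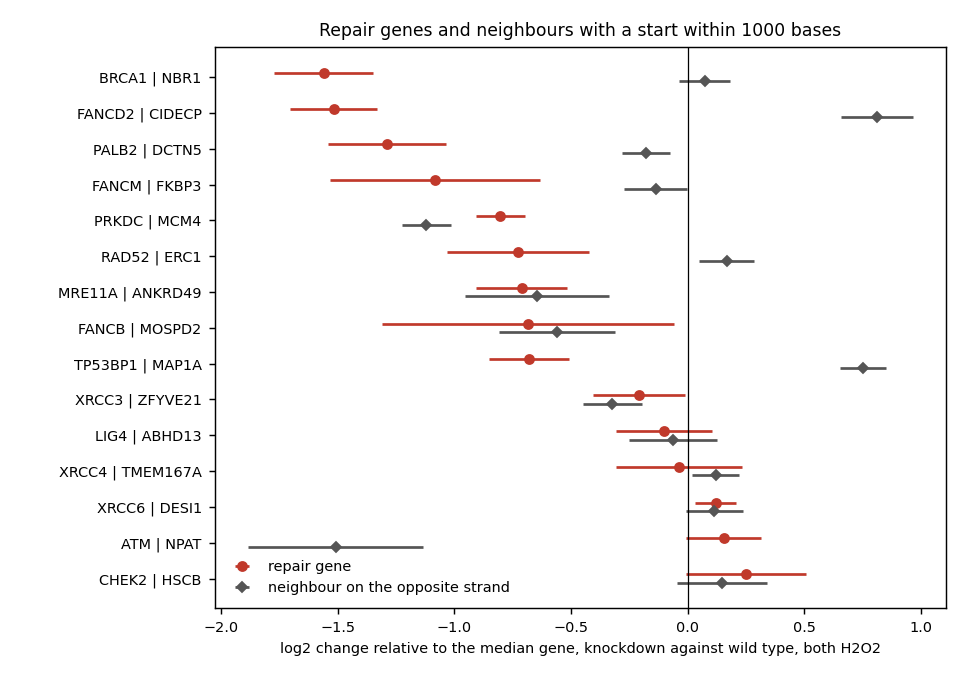
Log2 change in the knockdown against treated wild type for each repair gene (circles) and the gene that starts on the opposite strand within 1000 bases (diamonds), with bars of 1 SE, for the pairs whose neighbour had at least 50 mean counts in a group. BRCA1 at -1.56 and FANCD2 at -1.52 lie far left of their neighbours, and NPAT at -1.51 lies far left of ATM.

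Another gene overlaps 35 of the 46, and for 14 of them an overlapping gene had at least 50 mean counts in a group. Whether reads were counted by strand is not given in the sources used here, so reads in the shared stretch of such pairs cannot be told apart. On the opposite strand, FANCI overlaps POLG over 12064 bases, FANCA overlaps ZNF276 over 3355, RAD54L overlaps LRRC41 over 17278 and XRCC3 overlaps KLC1 over 16641. CHEK1 overlaps STT3A on its own strand, over only 80 bases. POLG had 481, 682 and 282.5 mean counts and STT3A 1747.5, 2646.5 and 1489. Processed copies took few reads: XRCC6P1 had 0, 12 and 36 mean counts and each other listed copy at most 2.

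The promoters of the genes that fell are shown for their sequence motifs. RefSeq windows (GRCh38.p14) of 250 bases before a start were found for 41 of the 46. The letters searched, on both strands, were TTTGGCGC, TTTCGCGC, TTTCCCGC and TTTGCCGC for E2F, a factor family of S phase genes, CCAAT for NF-Y, TTTGAA for the CHR element of mitotic genes and GCATGCGC for NRF1. A gene was counted where any of its windows held a match. E2F letters were found in 2 of the 41 genes, FANCA and FANCC, or 4.88%. This stood against 5.87% of genes with at least 50 mean counts and 3.40% of all 27305 genes with windows. NF-Y letters were in 20 of 41, or 48.8%, against 41.9% and 37.0%. The CHR letters were in 6, or 14.6%, against 11.6% and 16.1%, and the NRF1 letters in 3, or 7.32%, against 5.91% and 3.22%. Among the genes lower in the knockdown, 9 of 20 held NF-Y letters, against 11 of 21 of the others. A match is only a run of letters, and its absence says only that these letters are not in the window. The NRF1 letters can overlap their own reverse complement, as they do in RBBP8. No motif overlaps another in the sequences below, which are the 4 promoters chosen to show each motif in a gene that fell, read 5′ to 3′ on the gene's strand with motif letters in capitals. BRIP1 (chr17:61863529-61863776, minus strand) holds the NF-Y letters 3 times, at 117, 49 and 28 bases before the RefSeq start, and the CHR letters at 240. XRCC2 (chr7:152676142-152676235, minus strand) holds the NRF1 letters at 86, FANCA (chr16:89816648-89816827, minus strand) the E2F letters at 172 and NF-Y at 33, and BLM (chr15:90717197-90717345, plus strand) NF-Y at 141, 46 and 21.
BRIP1: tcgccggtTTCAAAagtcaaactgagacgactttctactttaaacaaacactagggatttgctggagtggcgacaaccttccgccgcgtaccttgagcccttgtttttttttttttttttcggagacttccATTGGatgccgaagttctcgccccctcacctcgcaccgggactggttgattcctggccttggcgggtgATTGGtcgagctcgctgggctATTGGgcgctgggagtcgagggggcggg
XRCC2: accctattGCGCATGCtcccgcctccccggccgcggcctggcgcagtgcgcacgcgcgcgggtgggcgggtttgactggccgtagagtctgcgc
FANCA: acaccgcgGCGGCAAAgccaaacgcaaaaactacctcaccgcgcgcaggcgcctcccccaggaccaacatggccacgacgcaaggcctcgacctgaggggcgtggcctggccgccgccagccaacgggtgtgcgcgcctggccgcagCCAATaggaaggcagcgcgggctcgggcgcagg
BLM: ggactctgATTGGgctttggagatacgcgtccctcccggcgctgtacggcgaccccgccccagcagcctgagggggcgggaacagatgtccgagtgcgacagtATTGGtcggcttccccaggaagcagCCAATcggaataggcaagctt
The knockdown changes of these genes were given above, from -1.24 for FANCA to -2.46 for XRCC2, and binding of the factors named was not analysed here.

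Against untreated wild type, the treated knockdown was lowest for EXO1 at -3.30, XRCC2 at -3.03 and POLQ at -2.85, as the log2 ratio of the group values relative to the median gene of that ratio and without a test. TP53BP1 at 0.00 and PRKDC at -0.20 lay near the median gene in this ratio, and ATM stood at 0.10 and LIG4 at 0.04. Gene span went with the change over all genes, with Pearson's r of -0.22 between log10 span and the knockdown change over 11570 genes and -0.12 over the 46. In H2O2 r was 0.18 over 11618 genes and 0.28 over the 45 tested. These are descriptions across genes, which are not independent. The repair genes were long, with a median span of 74.4 kb against 31.3 kb, and the 26 between 30 and 100 kb had a median knockdown change of -0.79, against -0.09 for the 3751 genes of that span.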

How the data were processed

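Groups were taken from the labels, and the 46 genes and the gene lists were chosen with earlier results of these data known. Per the submitters' processing notes, STAR 2.5, DESeq2 and DESeq were used with hg38, in roles not given there. The authors deposited 1 table per comparison with a pooled signal value for each group, a log2 fold change, a p-value and an adjusted p-value per gene. The signal equalled the mean count plus 1, divided by a length and scaled by a factor, and mean counts were recovered on that basis within 1e-06. A length was found for all 60448 genes, and for 86.0% it was the annotation's mean transcript length; for RAD52 and FANCF, whose lengths are not settled this way, mean counts may be off by a multiple. No fit on values per library could be made, so the deposited log2 fold changes were described. They were centred on the median gene (at least 50 mean counts) and divided by the SE that the deposited p-value implies. They were then tested again with a normal test and Benjamini-Hochberg adjustment over all tested genes. The recovery of counts and this centred test were tried on simulated data, but the rule that needs both tests was not scored there. Centring removes any change shared by most genes. Genes that passed are named with values, the 5 largest changes per direction in full; other pathway genes are named where they passed with a log2 change of at least 1 in size. The result of 1 further gene is not reported here. Alternatives were total-count scaling, the deposited or the centred test alone, a median over higher genes, span trend removal and stricter thresholds. Coordinates come from the annotation on hg38 and promoters from RefSeq. Python 3.11.15, numpy 2.4.6, scipy 1.17.1, pandas 2.3.3, numba 0.67.0 and matplotlib 3.10.9 were used.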

Additional observations from a re-analysis of the deposited data

How the results depend on the processing

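No call of a repair gene changed direction under any alternative run. In the knockdown, 22 of the 25 calls were kept with the span trend removed (NBN, WRN and XRCC5 lost). At an adjusted p under 0.01, 22 were kept (NBN, RNF168 and WRN lost), and all 25 under the other alternatives. With the deposited or the centred test alone, no call in either comparison could be lost or reversed, because a call needs both tests. After H2O2, TP53BP1 and PRKDC were lost without the span trend, and EXO1, FANCB and PRKDC at 0.01. The count of genes higher after H2O2 then became 0 without the span trend and 1 at 0.01, with 0 of signalling without the trend and 0 of end joining under either. The count lower after H2O2 became 11 by the centred test alone, a test chosen after seeing the data, and 3 at 0.01. By class it became 2 in signalling, 4 in the Fanconi pathway, 2 in end joining and 7 in recombination and Fanconi together by the centred test alone, and 1, 1 and 2 at 0.01 in recombination, the Fanconi pathway and both together. Without centring the medians after H2O2 were -0.0146 over the 45 genes tested, 0.16 in signalling, -0.0593 in recombination, -0.13 in the Fanconi pathway, 0.0421 in end joining and -0.11 in recombination and Fanconi together. In the knockdown they were -0.99 over all 46, -0.62 in signalling, -1.37 in the Fanconi pathway, -0.49 in end joining and -1.54 in recombination and Fanconi together. No paired analysis was possible because the tables hold 1 pooled value per group, and for the same reason no library could be left out. Medians without centring are not scaled for depth, so they include the difference in depth between groups. Depth limits FANCB, RAD51B and NHEJ1. The cause of the shifts between alternatives was not tested beyond the centring itself.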
